A study of Mus musculus with 8 samples.

Results

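The matrix metalloproteinases (MMPs) and their tissue inhibitors (TIMPs) were followed in immortalised mouse skin fibroblasts as 10 named genes of a table of 17091 features: the proteinases Mmp2, Mmp3, Mmp9, Mmp11, Mmp13, Mmp14 and Mmp23 and the inhibitors Timp1, Timp2 and Timp3. The genes were taken by name, and the family was chosen in part by a measured value: Mmp23 was lower in KO than in WT cells in these same libraries. RNA was measured in 8 libraries, 2 in each of 4 groups: KO cells in hypoxia, KO cells in normoxia, WT cells in hypoxia and WT cells in normoxia. KO cells came from mir210lox/lox mice and WT cells from C57BL/6 mice; hypoxia was 1% O2 and normoxia 21% O2, each for 24 hours. The labels name no Cre recombinase for the lox allele, nor do they give the number of lines, animals or cultures, so genotype and cell line cannot be told apart. The p-values rest on the spread among the libraries of a group, which may be no more than technical.

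MMPs are zinc endopeptidases made as inactive precursors. Once their propeptide is cut, they cleave collagens, laminins, fibronectin and many cell surface and growth factor binding proteins. TIMPs bind the active site and block it, and in the skin, fibroblasts are a main source of both. Mmp2 and Mmp9 are the gelatinases, Mmp3 is stromelysin-1, Mmp11 is stromelysin-3, Mmp13 is a collagenase, Mmp14 is a membrane-anchored proteinase that activates the Mmp2 precursor together with Timp2, and Mmp23 is an atypical membrane-bound member that furin-type proteases release.

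Stretches of 100 bases before the start site are shown for the genes that the results turn on: the chromosome 9 neighbours Mmp13, Mmp3 and Mmp10, Mmp23, and Mmp14, Timp1 and Timp3. They are RefSeq sequences of GRCm38.p6, written 5′ to 3′ on the gene's strand. Capitals mark a match, on either strand, to 1 of 2 motifs. The AP-1 motif, which Fos and Jun dimers bind, was searched as TGAGTCA. The core that hypoxia-inducible factors bind was searched both as ACGTG and, where the first base differs, as GCGTG. None of the genes shown held both motifs.

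Mmp13, chr9:7272414-7272513, plus strand: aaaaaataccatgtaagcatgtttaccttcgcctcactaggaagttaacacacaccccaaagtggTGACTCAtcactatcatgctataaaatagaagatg
Mmp3, chr9:7445722-7445821, plus strand: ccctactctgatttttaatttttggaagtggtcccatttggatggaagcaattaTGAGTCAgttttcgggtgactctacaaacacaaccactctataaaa
Mmp10, chr9:7502242-7502341, plus strand: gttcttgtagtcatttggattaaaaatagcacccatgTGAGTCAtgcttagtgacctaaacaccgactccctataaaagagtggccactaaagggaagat
Mmp23, chr4:155653385-155653484, minus strand: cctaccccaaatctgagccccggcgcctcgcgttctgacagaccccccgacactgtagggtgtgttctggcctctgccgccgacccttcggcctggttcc
Mmp14, chr14:54431498-54431597, plus strand: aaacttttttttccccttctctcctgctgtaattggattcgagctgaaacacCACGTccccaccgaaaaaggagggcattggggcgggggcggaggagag
Timp1, chrX:20870066-20870165, plus strand: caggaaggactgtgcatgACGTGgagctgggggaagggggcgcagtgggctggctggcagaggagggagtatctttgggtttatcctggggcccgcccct
Timp3, chr10:86300312-86300411, plus strand: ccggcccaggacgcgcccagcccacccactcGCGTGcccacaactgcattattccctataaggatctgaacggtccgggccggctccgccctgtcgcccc

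The AP-1 motif began 35 bases before the start of Mmp13, 46 before that of Mmp3 and 63 before that of Mmp10. The windows searched ran from 250 bases before to 50 after the start. Of the 8 genes of the family with a promoter entry, 2, Mmp3 and Mmp13, held the AP-1 motif on either strand. Of all 27025 genes with an entry, 5.95% held it. The hypoxia core was held by 4 of the 8, Mmp14, Timp1, Timp2 and Timp3, beside 46.73% of all genes with an entry. For Mmp14 it began 48 bases, for Timp3 69 bases and for Timp1 82 and 206 bases before the start; for Timp2 it began 113 bases before it, outside a stretch of this size. No match to either was found in the windows of Mmp23 and Mmp11. These matches describe letters, not bound sites.

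The values are the authors' normalised read counts, rounded to whole numbers, with a lowest value of 1. Their sum was 7928389 to 8676920 a library, and the steps between low values put the reads behind them at an estimated 6250000 to 11750000 a library. All 13 fibroblast markers were in the table, with a summed level of 64847 to 98291, while leukocyte Laptm5, endothelial Emcn, keratinocyte Krt5 and Krt1 and bone Sp7 were at 1 in all 8 libraries. Other genes of those lists were not: Cd14 was at 43 to 79, Kdr at 6 to 25, Cdh1 at 8 to 38, Col2a1 at 267 to 1237, Sox9 at 181 to 393 and Acan at 83 to 211, and the melanocyte factor Mitf at 29 to 57. WT hypoxia library 2 stood apart on the first principal component (30% of the variance) and KO normoxia library 1 on the second (25.4%); both WT libraries numbered 2 lay at the other end of the second. Each of the 7 low-oxygen check genes rose in hypoxia in KO and in WT cells: Slc16a3, a lactate transporter, had 634 and 606 in KO hypoxia and 25 and 9 in KO normoxia, and 333 and 443 in WT hypoxia and 15 and 13 in WT normoxia (mean log2 difference 4.98 ± 0.29 SE, limma adjusted p = 2.9e-05).

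The inhibitors were the most abundant of the 10 genes. To compare genes, each value was divided by the length of the gene's longest annotated transcript. On this per-kilobase scale the mean level over 8 libraries was 8472 for Timp1, 1744 for Timp3 and 1612 for Timp2. The proteinases followed with 630 for Mmp2 and 488 for Mmp14, then 42.8 for Mmp11, 38.5 for Mmp23, 36.7 for Mmp3, 7.24 for Mmp9 and 0.889 for Mmp13. Timp1 lay above Timp3, Timp2 above Mmp2, Mmp14 above Mmp11 and Mmp9 above Mmp13 in all 8 libraries with no overlap of their ranges. The ranges of the other neighbours overlapped: Timp3 and Timp2, Mmp2 and Mmp14, Mmp11 and Mmp23, Mmp23 and Mmp3, and Mmp3 and Mmp9. Mmp2 was nevertheless above Mmp14 within each of the 8 libraries.

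**Figure D1:**
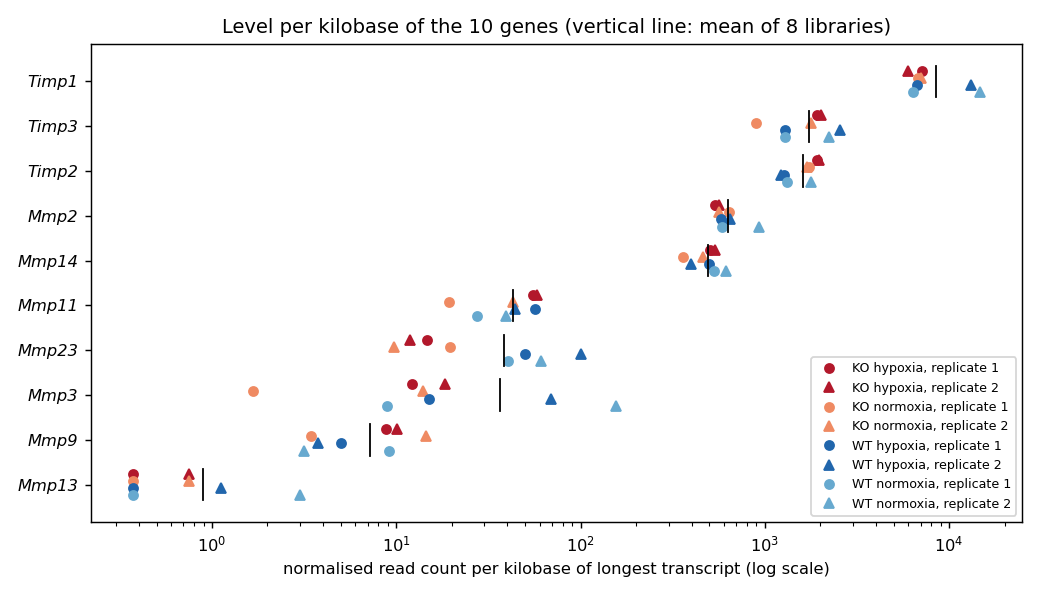
Level per kilobase of longest transcript (normalised read count per kilobase, log axis) of the 10 genes, 1 point per library, with a vertical line at the mean of the 8 libraries. Timp1, Timp3 and Timp2 lie highest, Mmp2 and Mmp14 lead the proteinases, and Mmp3 spreads widest, with a highest value 93 times its lowest.

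The proteinase pool was mostly Mmp2 and Mmp14 RNA. These genes made up 82.75% to 95.75% of the summed per-kilobase level of the 7 proteinases. That sum was 1132 and 1199 in KO hypoxia and 1041 and 1107 in KO normoxia, and 1202 and 1265 in WT hypoxia and 1202 and 1809 in WT normoxia. The summed level of the 3 inhibitors was 10909 and 9953 in KO hypoxia and 9388 and 10534 in KO normoxia, and 9255 and 16936 in WT hypoxia and 8931 and 18720 in WT normoxia. The highest sums of both kinds were in WT libraries numbered 2. The inhibitor sum exceeded the proteinase sum in every library, by a ratio of 8.30 to 9.63 in KO libraries and 7.43 to 13.4 in WT libraries, so the ratio in KO lay within that of WT.

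Hypoxia against normoxia was a contrast that the stated reason for the choice, Mmp23 in KO against WT, did not use. Of the 9 genes that reached 10 in at least 2 libraries and so could be tested, 0 passed the limma test in KO cells (adjusted p 0.916 to 0.984), 0 in WT cells (0.83 to 0.993) and 0 over both genotypes (0.804 to 0.998). At an unadjusted p under 0.05 there was 1 in KO cells and 1 over both genotypes, Mmp11 each time, and 0 in WT cells. Over all 12107 features tested, the adjusted test called 0.0578% in KO cells, 0.107% in WT cells and 0.363% over both, all of them higher in hypoxia, and the unadjusted one 3.2%, 6.33% and 5.29%. Against these shares, 0 or 1 of 9 is not a result about the family. Mmp13 was too low to test: it was at 1 and 2 in KO hypoxia and 1 and 2 in KO normoxia, and at 1 and 3 in WT hypoxia and 1 and 8 in WT normoxia, an estimated 12 reads over all 8 libraries.

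**Figure D2:**
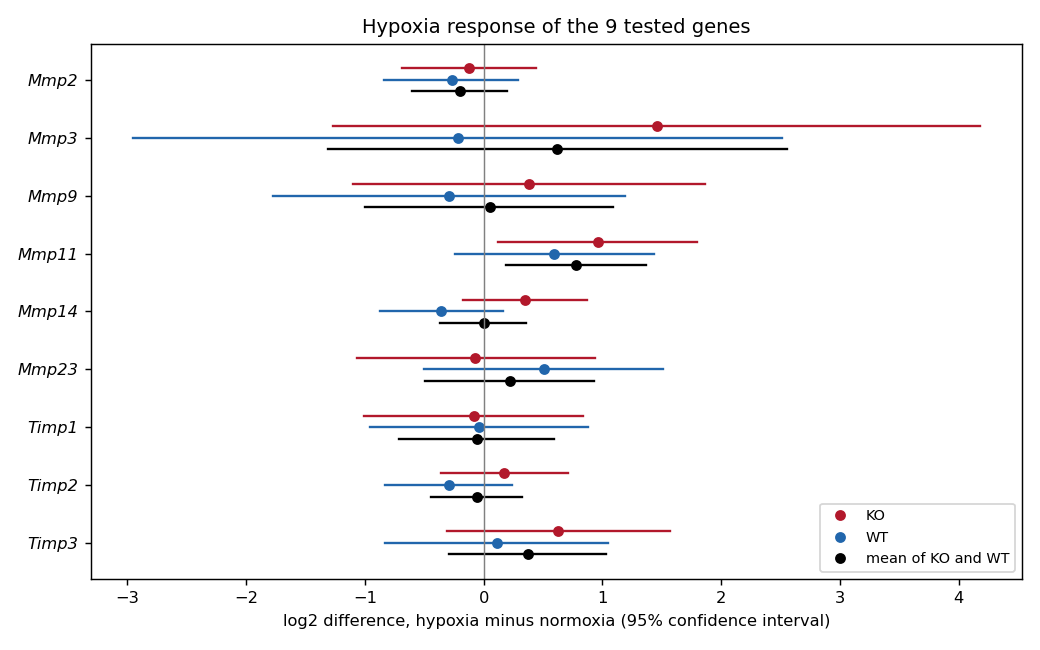
Hypoxia response of the 9 tested genes (log2 difference of normalised read count plus 1, hypoxia minus normoxia) in KO cells, in WT cells and as their mean, with 95% confidence intervals from limma. The interval of Mmp11 lies above 0 in KO cells and for the mean (0.19 to 1.37) and includes 0 in WT cells; Mmp14 lies above 0 in KO cells and below 0 in WT cells, with intervals that include 0.

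Mmp11, the stromelysin-3 gene of stromal fibroblasts, had the highest hypoxia response of the family over both genotypes. It had 126 and 132 in KO hypoxia and 44 and 98 in KO normoxia, and 129 and 101 in WT hypoxia and 63 and 90 in WT normoxia. All 4 hypoxia libraries lay above all 4 normoxia libraries, 122 ± 14.2 against 73.75 ± 24.9 (SD, n = 4 each). It was the only one of the 9 genes whose groups separated in that direction, beside 2.06% of all features tested, and 0 of 9 separated the other way, beside 1.65%. Both pairs of groups separated upwards, in KO and in WT, in 3.6% of features. The mean log2 difference was 0.78 ± 0.27 (SE; 1.71-fold), which did not pass (unadjusted p = 0.015, limma adjusted p = 0.804). In KO cells the difference was 0.96 ± 0.38 (adjusted p = 0.916), but it was 0.39 without KO normoxia library 1 and 1.53 without KO normoxia library 2, where it passed (adjusted p = 0.0405) together with 758 features in all. Mmp11 lies on chromosome 10 (75923222-75936496, minus strand, GENCODE M21 on GRCm38) and shares 155 exon bases with Chchd10 on the other strand, which was at 1 to 2 in every library.

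The gelatinases showed no shared response. Mmp2, which cleaves denatured and basement membrane collagen (chromosome 8, 92827291-92853420, plus strand), had 1649 and 1738 in KO hypoxia and 1958 and 1734 in KO normoxia, and 1771 and 1999 in WT hypoxia and 1810 and 2860 in WT normoxia. The groups overlapped in both genotypes, and the mean log2 difference was -0.20 ± 0.18 (adjusted p = 0.922). With an interval of -0.60 to 0.20, a mean change of 2-fold in either direction lay outside it. Mmp9 (chromosome 2, 164940780-164955850, plus strand) had 28 and 32 in KO hypoxia and 11 and 46 in KO normoxia, and 16 and 12 in WT hypoxia and 29 and 10 in WT normoxia. These values rest on an estimated 7 to 67 reads a library, and the mean log2 difference of 0.05 had an interval of -1.0 to 1.09.

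Mmp3, stromelysin-1, which cleaves proteoglycans and laminin and activates other MMP precursors, varied more between replicates than between oxygen levels. It had 22 and 33 in KO hypoxia and 3 and 25 in KO normoxia, and 27 and 124 in WT hypoxia and 16 and 279 in WT normoxia. The log2 difference was 1.46 ± 1.23 in KO cells (adjusted p = 0.916) and -0.22 ± 1.23 in WT cells (adjusted p = 0.987). The WT value ran from -2.24 to 1.80 as single libraries were left out, and the KO value from 0.11 to 2.81.

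Mmp14 and Timp2, partners in the activation of the Mmp2 precursor, lay on opposite sides of 0 in the genotypes. Mmp14 (chromosome 14, 54431612-54445364, plus strand) had 1637 and 1736 in KO hypoxia and 1167 and 1497 in KO normoxia, so both hypoxia libraries were above both normoxia libraries; it had 1618 and 1287 in WT hypoxia and 1709 and 2002 in WT normoxia, so both were below. Timp2 (chromosome 11, 118301069-118355740, minus strand; it holds Cep295nl, a gene not used here, with 0 shared exon bases) had 7092 and 7287 in KO hypoxia and 6462 and 6282 in KO normoxia, again above, and 4694 and 4554 in WT hypoxia and 4876 and 6588 in WT normoxia, again below. The log2 difference of Mmp14 was 0.35 ± 0.23 in KO cells (adjusted p = 0.916) and -0.36 ± 0.23 in WT cells (adjusted p = 0.835), and the KO minus WT difference of responses was 0.71 ± 0.33 (95% interval -0.02 to 1.44, adjusted p = 0.857). That of Timp2 was 0.17 ± 0.24 in KO cells (adjusted p = 0.93) and -0.29 ± 0.24 in WT cells (adjusted p = 0.87), and the difference of responses was 0.47 ± 0.34 (-0.29 to 1.22, adjusted p = 0.857). Single libraries moved these values: Mmp14 was 0.17 in KO without KO normoxia library 1 and -0.19 in WT without WT hypoxia library 2. Timp2 was -0.08 in WT without WT normoxia library 2, where its difference of responses was 0.25. Without both WT libraries numbered 2, the WT responses were -0.08 for Mmp14 and -0.05 for Timp2. Neither difference passed, and the test called 0.0% of all features (3.14% at an unadjusted p under 0.05). Separation higher in KO and lower in WT was found in 2.02% of all features tested, and in opposite directions in either order in 4.15%. Of the 9 genes, 4 separated upwards in KO cells (Mmp11, Mmp14, Timp2 and Timp3, beside 15.9% of features) and 0 downwards (16.3%); in WT cells 1 did so upwards (Mmp11, beside 18.9%) and 2 downwards (Mmp14 and Timp2, 19.9%).

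Timp1, the most abundant inhibitor RNA per kilobase (chromosome X, 20870166-20874735, plus strand), had 6258 and 5278 in KO hypoxia and 5963 and 6228 in KO normoxia, and 5914 and 11616 in WT hypoxia and 5592 and 13000 in WT normoxia. Oxygen groups overlapped in both genotypes, and the mean log2 difference was -0.06 ± 0.29 (-0.71 to 0.59, adjusted p = 0.982). Timp3, an inhibitor that binds the matrix (chromosome 10, 86300372-86349506, plus strand), had 9017 and 9494 in KO hypoxia and 4213 and 8440 in KO normoxia, and 6101 and 12057 in WT hypoxia and 6058 and 10489 in WT normoxia. Its KO groups did not overlap, with a log2 difference of 0.63 ± 0.42 (adjusted p = 0.916) that was 0.13 without KO normoxia library 1. That library held the lowest value of the 8 for Mmp3, Mmp11, Mmp14 and Timp3, and the highest KO value for Mmp2 and Mmp23. On the strand opposite to Timp1 and Timp3 lie the synapsin genes Syn1, at 1 to 4, with 0 shared exon bases, and Syn3, at 1 in every library, with 1733.

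Between genotypes, Mmp23 was the gene for which the family was picked, so its values are given with no test. Mmp23 had 21 and 17 in KO hypoxia and 28 and 14 in KO normoxia, and 72 and 144 in WT hypoxia and 58 and 88 in WT normoxia. The highest KO library lay below the lowest WT library, with means of 20 ± 6.06 in KO and 90.5 ± 37.7 in WT (SD, n = 4 each). WT exceeded KO 4.24-fold over both oxygen levels, 5.17-fold in hypoxia and 3.47-fold in normoxia (log2 KO minus WT -2.08, -2.37 and -1.80 on the scale of log2 of value plus 1). An estimated 14, 22, 20 and 20 reads lay behind the KO values in the order above, and 66, 136, 72 and 73 behind the WT values. The adjusted limma test called 0.0248% of all features between genotypes, which is given as background only. In bulk RNA, fewer cells that express a gene and less RNA per cell cannot be told apart.

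Of the 9 tested genes, 1 had all KO below all WT libraries, Mmp23 (1.7% of features), which the choice of the family fixed, and 0 had all KO above all WT libraries (1.95%). The mean log2 KO minus WT difference was -1.92 for Mmp3, -0.51 for Timp1, -0.23 for Mmp2, -0.15 for Timp3, -0.13 for Mmp14, -0.01 for Mmp11, 0.40 for Timp2 and 0.72 for Mmp9, each with overlapping ranges. Several of these moved with 1 library: Timp3 was 0.04 without WT normoxia library 2, 0.09 without WT hypoxia library 2 and 0.10 without KO normoxia library 1. Mmp9 was 0.23 without KO normoxia library 2 and 1.21 without KO normoxia library 1, and Mmp2 was -0.06 without WT normoxia library 2. Mmp23 made up 0.88% to 1.88% of the summed proteinase level per kilobase in KO libraries, against 3.36% to 7.94% in WT libraries. Mmp23 did not separate by oxygen level. Its hypoxia response on the log2 scale was -0.07 ± 0.45 for KO cells (limma adjusted p = 0.984), and for WT cells 0.51 ± 0.45 (limma adjusted p = 0.875), which was 0.01 without WT hypoxia library 2. The gene lies on chromosome 4 (155650655-155653384, minus strand) with 8 exons in its longest transcript of 1434 bases, and no other annotated gene overlaps it.

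**Figure D3:**
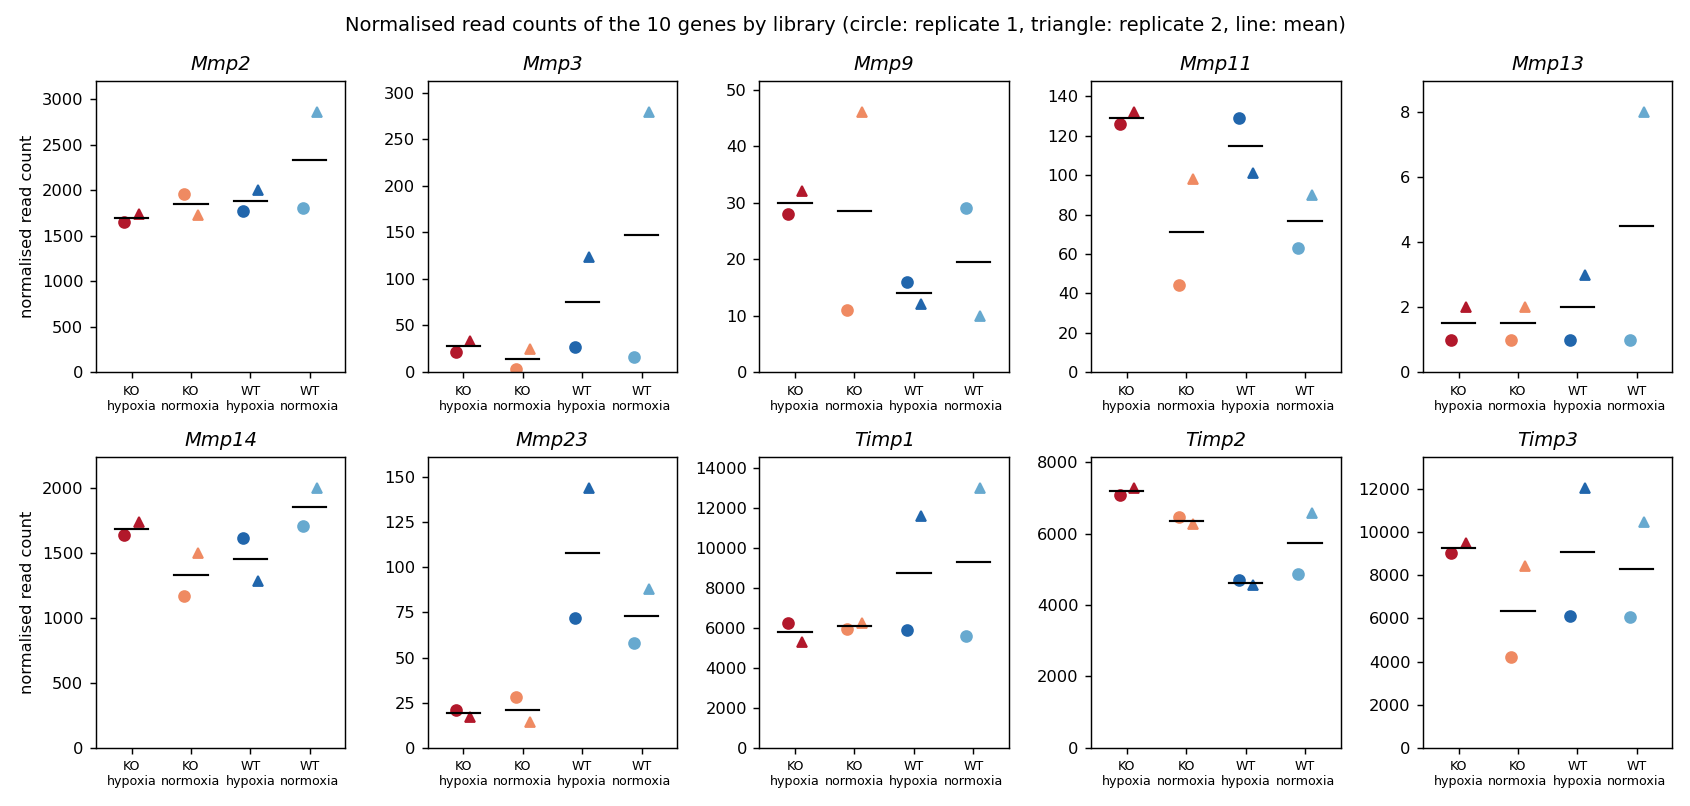
Normalised read counts of the 10 genes, a panel each with its own axis starting at 0, by group; circles are replicate 1, triangles replicate 2 and lines group means. Mmp23 lies at 14 to 28 in KO and at 58 to 144 in WT libraries, and Mmp11 higher in all hypoxia than in all normoxia libraries.

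The summed levels of 2 of the 7 marker lists did not overlap between the genotypes either, though single genes of both lists did. The keratinocyte and epithelial list had all 8 genes in the table, 4 of them below 10 in every library and Krt5 and Krt1 at 1. Its summed level was 75 to 94 in KO libraries (77 to 93 in hypoxia, 75 to 94 in normoxia) and 42 to 60 in WT libraries (50 to 60 in hypoxia, 42 to 48 in normoxia). Its most abundant gene, Cdh1, was at 21 to 38 in KO and 8 to 14 in WT. Such separation, higher in KO, was found in 1.95% of all features tested. Krt10, at 10 to 24 in KO and 10 to 26 in WT, overlapped, as did Krt14, Epcam, Trp63 and Dsp. The muscle and pericyte list, with 7 of 8 genes in the table, 2 of them below 10 in every library, summed to 36627 to 43158 in KO hypoxia and 35986 to 40845 in KO normoxia, against 56349 to 60583 in WT hypoxia and 50470 to 66030 in WT normoxia, mostly from Acta2, the smooth muscle actin of contractile fibroblasts. Cspg4, a pericyte marker of the same list, ran the other way, at 1102 to 1773 in KO and 771 to 1040 in WT. The fibroblast sum was mostly Vim and S100a4. Of its genes, Dcn (decorin) was at 12 to 25 in KO and 40 to 93 in WT, with no overlap. Col3a1, at 1509 to 1986 in KO and 2012 to 4428 in WT, did not overlap either. Separation in this direction was found in 1.7% of all features tested. Lum was at 1 to 4 in KO and 4 to 36 in WT, and Fap at 4 to 7 in KO and 7 to 40 in WT. The rest of the list overlapped. Pdgfra, at 923 to 1385 in KO and 405 to 1156 in WT, and Thy1, at 1154 to 1652 and 871 to 1470, tended the other way. Col1a1 was at 5157 to 8590 in KO and 4983 to 8554 in WT. The part of these marker genes in the Mmp23 values was not tested. The macrophage and leukocyte list (9 of 11 in the table, 5 of them below 10 in every library and Laptm5 at 1) summed to 72 to 109, with Cd14 highest.

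The genes whose levels ran most like that of Mmp23 over the 8 libraries, by Pearson's r of log2 of value plus 1, were Cbr1, a carbonyl reductase (r = 0.985), Mcfd2, a cargo receptor subunit (0.972), Ptpla (0.969), Ctsz, a lysosomal cysteine protease (0.963), and Bdh1 (0.959). Cbr1 had 37 and 38 in KO hypoxia and 41 and 34 in KO normoxia, and 76 and 138 in WT hypoxia and 73 and 88 in WT normoxia, so it too was below WT in every KO library. It was picked for running like Mmp23, so this order is no separate result. All KO lay below all WT libraries in 1.7% of all features tested. The genes that ran most against Mmp23 were Ern1, the endoplasmic reticulum stress sensor (-0.976), the integrin Itgb3 (-0.971), Helz (-0.969), Zfp865 (-0.968) and Vangl1 (-0.964). Ern1 had 181 and 195 in KO hypoxia and 148 and 207 in KO normoxia, and 122 and 95 in WT hypoxia and 144 and 121 in WT normoxia. These coefficients describe 8 libraries that fall into 4 groups, and are the extremes among all tested features.

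Within WT, the libraries numbered 2 held the highest values for much of the family. Both lay above the other 6 libraries for 6 of the 10 genes, Mmp2, Mmp3, Mmp13, Mmp23, Timp1 and Timp3, 5 of them among the 9 tested, beside 8.28% of all features tested; the pattern was chosen after the values were seen and has no test. Library 2 over library 1 in WT was 2.32-fold in normoxia and 1.96-fold in hypoxia for Timp1, 17.4-fold and 4.59-fold for Mmp3, and 1.73-fold and 1.98-fold for Timp3. The corresponding ratios were 1.52 and 2.0 for Mmp23, and 1.58 and 1.13 for Mmp2. Mmp9, Mmp11, Mmp14 and Timp2 did not show this order. Some marker sums were also highest there, with the osteoblast and chondrocyte list (7 of 9 genes in the table, 2 below 10 in every library, Sp7 at 1) at 2002 in WT hypoxia library 2 and 1815 in WT normoxia library 2 against 827 to 1210 elsewhere, mostly from Col2a1, and the endothelial list (6 of 8 in the table, 3 below 10 in every library, Emcn at 1) at 68 and 76 against 19 to 39; their part was not tested. In the same bone list Runx2 was not highest there, at 163 and 216. It was at 189 in WT hypoxia library 1, 174 in WT normoxia library 1 and 132 to 312 in KO libraries. In the endothelial list Tek was at 27 and 15 there, against 3 to 9 elsewhere, and Erg at 24 and 31, against 4 to 11. Other genes of that list were not highest in both: Kdr was at 14 and 25, against 6 to 18 elsewhere. Cdh5 was at 1 and 2, against 1 to 8, and Pecam1 at 1 and 2, against 1. The fibroblast, leukocyte, epithelial and muscle sums were not highest in both of these libraries. The fibroblast sum, mostly Vim and S100a4, hides single genes that were. Postn was at 5937 and 7954 there, against 2479 to 3537 elsewhere, and Col3a1 at 3127 and 4428, against 1509 to 2242. Fap was at 40 and 38, against 4 to 9, Lum at 36 and 27, against 1 to 6, and Dcn at 93 and 62, against 12 to 52. The other genes of the fibroblast list were not highest in both of these libraries. S100b, a glial marker, was at 86 and 39 there, against 7 to 22 elsewhere.

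Without the WT libraries numbered 2, Mmp23 was at 14 to 28 in KO and at 58 and 72 in WT. All KO libraries already lay below all WT libraries, so leaving some out could not change this order. Timp2 was then at 6282 to 7287 in KO and 4694 and 4876 in WT, with no overlap. Over all WT libraries, at 4554 to 6588, its ranges overlapped. The share of all features that separate with these WT libraries left out was not counted, so this is no result about Timp2. Timp1 was at 5278 to 6258 in KO and 5592 and 5914 in WT, and its log2 KO minus WT difference, -0.51 over all libraries, was 0.04 without them. Mmp3 was at 3 to 33 in KO and 16 and 27 in WT, and its difference moved to -0.37.

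**Figure D4:**
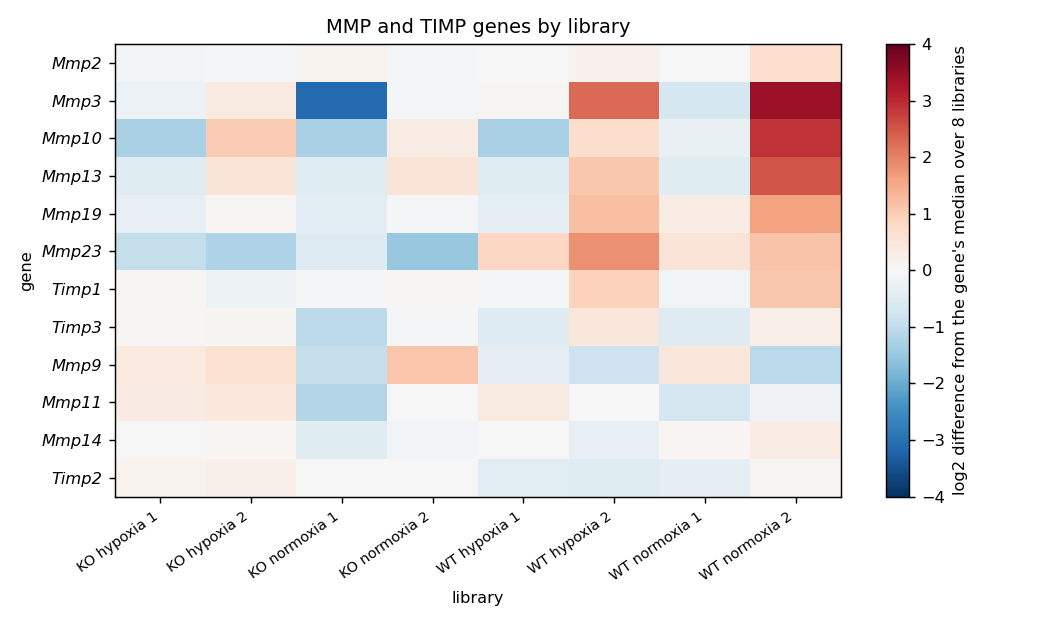
Log2 difference of each library from the gene's median over the 8 libraries (colour scale, red higher and blue lower) for the 10 genes and for Mmp10 and Mmp19, with KO libraries left of WT libraries. Mmp3, Mmp13, Mmp19, Timp1 and Timp3 are reddest in the WT libraries numbered 2, Mmp23 is blue in KO and red in WT, and KO normoxia 1 is bluest for Mmp3.

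Mmp13 (7272514-7283331), Mmp3 (7445822-7455975) and Mmp10 (7502352-7510240) lie in this order on the plus strand, with 162490 bases and 2 coding genes between Mmp13 and Mmp3 and 46376 bases and no coding gene between Mmp3 and Mmp10, and they are the promoters printed above with an AP-1 match. Mmp10, stromelysin-2, was at 1 and 5 in KO hypoxia and 1 and 3 in KO normoxia, and at 1 and 4 in WT hypoxia and 2 and 18 in WT normoxia. All 3 genes were highest in WT normoxia library 2, on an estimated 6 reads for Mmp13, 14 for Mmp10 and 234 for Mmp3, and each was at its lowest value in KO normoxia library 1, a value of 1 that other libraries shared for Mmp13 and Mmp10. The mean value of Mmp19, an MMP on another chromosome, was 76.0 ± 12.1 in KO and 157.5 ± 88.0 in WT (SD, n = 4 each); it had 69 and 89 in KO hypoxia and 63 and 83 in KO normoxia, and 67 and 197 in WT hypoxia and 105 and 261 in WT normoxia.

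The rest of the pathway gave no call either in hypoxia. Of 17 other MMPs and Timp4 listed, 10 were in the table and 5 were tested; 0 rose and 0 fell by the limma test in KO cells, in WT cells or over both genotypes, with 0 at an unadjusted p under 0.05. Mmp1b, Mmp12 and Timp4 were at 1 or 2 throughout. Mmp16, a membrane-anchored MMP, was the most abundant of them, with 302 and 265 in KO hypoxia and 210 and 309 in KO normoxia, and 215 and 358 in WT hypoxia and 217 and 366 in WT normoxia.

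Of 22 tested genes for activation, inhibition and clearance of MMPs, 0 passed in either direction in any of these comparisons, and 1 had an unadjusted p under 0.05 in each. The median log2 difference was 0.17 in KO and -0.08 in WT, against 0.01 and -0.02 for all features. Bsg (basigin or EMMPRIN, a surface protein known to induce MMPs in fibroblasts) had 7308 and 6693 in KO hypoxia and 5587 and 3815 in KO normoxia, and 9554 and 13037 in WT hypoxia and 4612 and 5056 in WT normoxia. All hypoxia libraries of Bsg lay above all normoxia libraries, as in 2.06% of all features tested. Bsg was named for its large change, so this order is no separate result. Its log2 difference was 1.21 ± 0.27 in WT cells (limma adjusted p = 0.337) and 0.90 ± 0.19 over both genotypes (limma adjusted p = 0.155), and neither passed. Lrp1, the endocytic receptor that clears MMPs and TIMPs, had 7645 and 6650 in KO hypoxia and 3406 and 5788 in KO normoxia (log2 difference 0.68 ± 0.29, adjusted p = 0.916). Serpinb2 had a larger difference in KO cells, 0.80 ± 0.48 (limma adjusted p = 0.916). Plat, tissue plasminogen activator, had 250 and 748 in WT hypoxia and 190 and 242 in WT normoxia (1.01 ± 0.46, adjusted p = 0.785).

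Among the substrates, all 27 listed genes were tested and 0 passed in either direction. At an unadjusted p under 0.05 there were 2 in KO cells, 1 in WT cells and 0 over both genotypes. The signs differed between the genotypes. In KO cells 21 were positive and 6 negative, with a median log2 difference of 0.33 (0.01 for all features). In WT cells 6 were positive and 21 negative, with a median of -0.26 (-0.02 for all features). This order of signs was not particular to the substrates. The activation, inhibition and clearance list had 18 positive and 4 negative in KO, and 7 and 15 in WT. The transcription factors had 16 and 4 in KO, and 4 and 16 in WT. The genes of a list are not independent. Among the substrates the difference of responses passed for 0 of 27 (2 at an unadjusted p under 0.05, median 0.51 against 0.01 for all features). Fn1, fibronectin, had 35937 and 31319 in KO hypoxia and 11176 and 26178 in KO normoxia (0.97 ± 0.42, adjusted p = 0.916). Hspg2, perlecan, had 5433 and 4299 in KO hypoxia and 1755 and 3666 in KO normoxia (0.93 ± 0.34, adjusted p = 0.916). In both genes KO normoxia library 1 was the lowest of the 8 libraries. Col4a2, a basement membrane collagen, had 1676 and 1513 in WT hypoxia and 2093 and 2790 in WT normoxia (-0.60 ± 0.23, adjusted p = 0.767). Larger differences in WT cells included those of Nid1 (-1.07 ± 0.51, limma adjusted p = 0.796) and Lamc1 (-0.64 ± 0.32, limma adjusted p = 0.8).

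Of the 20 transcription factors listed for MMP promoters, 0 passed in either direction in KO cells, in WT cells or over both genotypes, and 1 had an unadjusted p under 0.05 in WT cells. Medians were 0.17 in KO and -0.14 in WT. Ets2 had 215 and 215 in WT hypoxia and 314 and 304 in WT normoxia (-0.52 ± 0.22, adjusted p = 0.784). Larger differences in WT cells included those of Etv5 (-0.70 ± 0.33, limma adjusted p = 0.791) and Egr1 (0.66 ± 0.38, limma adjusted p = 0.814). Fosl1, an AP-1 subunit, had 228 and 200 in KO hypoxia and 111 and 160 in KO normoxia (0.68 ± 0.41, adjusted p = 0.916), and 196 and 89 in WT hypoxia and 205 and 110 in WT normoxia. Within WT, Fosl1 was thus lower in the libraries numbered 2, in which Mmp3 was higher, while Fos had 16 and 78 in WT hypoxia and 8 and 44 in WT normoxia and was higher there. The other listed Fos and Jun genes, Fosb, Fosl2, Jun, Junb and Jund, were lower there, as Fosl1 was. A link of these genes to Mmp3 was not tested. Runx1, with 270 and 278 in KO hypoxia and 127 and 263 in KO normoxia, was lowest in KO normoxia library 1.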

How the data were processed

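Per the labels' protocols, RNA came from a miRNeasy kit, and the library set was NEBNext small RNA for SOLiD sequencing. The deposited table holds one score per feature and library, the authors' normalised read counts rounded to whole numbers. How reads were aligned, counted and normalised, on which build and with which use of strand, is not given in the sources used here, so overlapping genes may share reads. From the values, each score fits a library-specific step times a read count plus 1, and estimated reads come from that step. Because the scores are normalised, no count model was used. Features with at least 10 in at least 2 libraries (12107 of 17091) were tested on log2(score + 1) with limma 3.58.1 in R 4.3.3, with an intensity trend and all 4 groups in 1 fit (10.2 residual degrees of freedom with the prior), and Benjamini-Hochberg adjustment over all tested features at 0.05. With 2 libraries a group, an exact permutation test cannot go below p = 0.333. The scripts were tested on simulated data. Transcript lengths came from GENCODE M21 and promoters from RefSeq (GRCm38.p6); Mmp2 and Mmp9 had no promoter entry. A planned search of protein motifs was not run. The members, gene lists and tests were chosen with earlier results of these data known. Open to naming were the 10 genes, the check genes, the 5 genes most and least like Mmp23 and genes that overlap a member. From each list these were genes that passed or, where fewer than 3 did, up to 3 with the largest change at a mean of at least 50. Only some of the check and list genes were named, so a named gene need not have the largest change. Mmp10, Mmp1b, Mmp12, Timp4, Fos, Fosb, Fosl2, Jun, Junb, Jund and some single marker genes were named after their values were seen. Alternatives were another pseudocount (8, and 0 added later), no filter, quantile normalization, removal of a trend with transcript length, a replicate block, robust empirical Bayes, and libraries left out. The sum of 1 marker list is not reported here. No sequencing date or batch was in the labels.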

Additional observations from a re-analysis of the deposited data

Results flagged for a closer look

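The hypoxia responses of Mmp14 ran in opposite directions, with both KO hypoxia libraries above both KO normoxia libraries and both WT hypoxia libraries below both WT normoxia libraries, and a KO minus WT difference of responses of 0.71 on the log2 scale (limma adjusted p = 0.857). The same held for Timp2, with a difference of 0.47 (limma adjusted p = 0.857). Without both WT libraries numbered 2 the differences were 0.43 for Mmp14 and 0.23 for Timp2. Both differences were tested and neither passed, and groups separated in opposite directions, in either order, in 4.15% of all features tested.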

How the results depend on the processing

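Under 17 alternative settings, 493 values were counted. These were the hypoxia responses of the 9 tested genes and the differences of responses of Mmp14 and Timp2, picked for their opposite directions. The differences of responses of the other genes were not counted. Of the 493, 451 kept their direction and 41 reversed. The remaining 1 also kept its direction: Mmp11 in KO cells without KO normoxia library 2 (1.53), which leaves 1 library in that group. In every setting with 2 libraries in each group, 0 family genes passed in any hypoxia comparison. Over all features, the count was 13 in WT hypoxia (6 with no filter, 1 to 20 as single libraries were left out, lowest without WT hypoxia library 2, 6 without that library and KO normoxia library 1, 0 without both WT libraries numbered 2). It was 7 in KO hypoxia (12 with the length trend removed, 4 to 758 leaving out single libraries, lowest without KO hypoxia library 2 and highest without KO normoxia library 2, and 2 without both WT libraries numbered 2). It was 44 for the mean hypoxia response (24 with no filter, 12 to 50 leaving out single libraries, lowest without WT hypoxia library 2, 25 without that library and KO normoxia library 1, and 3 without both WT libraries numbered 2). It was 0 for the difference of responses in every setting. For the mean KO minus WT difference it was 3, and 0 with no filter, without any single library and without either of those pairs. The cause was not tested; left-out libraries leave fewer samples.

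Reversed log2 differences included the mean responses of Mmp3 (0.62 over all libraries) and Timp3 (0.37) and the KO response of Mmp9 (0.38). Without both WT libraries numbered 2, WT values were 0.72 for Mmp3 and 0.08 for Timp1, and mean values were -0.22 for Mmp9, 0.14 for Mmp14 and 0.06 for Timp2. Without WT hypoxia library 2 and KO normoxia library 1, they were -0.39 for Timp3 in WT, -0.60 for Mmp9 and 0.41 for Mmp23 in KO, and -0.60 for Mmp3, -0.35 for Mmp9 and -0.13 for Timp3 in the mean. Quantile normalization gave -0.03 for Timp3 in WT and -0.06 for Mmp9 in the mean, and removing the length trend 0.01 for Timp1 in KO. Leaving out single libraries gave, in WT, -0.60 to 0.06 for Mmp2, -2.24 to 1.80 for Mmp3, -1.01 to 0.43 for Mmp9, -0.65 to 0.57 for Timp1 and -0.39 to 0.60 for Timp3; in KO, -0.60 to 1.37 for Mmp9, -0.54 to 0.41 for Mmp23 and -0.21 to 0.04 for Timp1; and in the mean, -0.39 to 1.63 for Mmp3, -0.45 to 0.54 for Mmp9, -0.09 to 0.09 for Mmp14, -0.03 to 0.47 for Mmp23, -0.37 to 0.24 for Timp1 and -0.17 to 0.05 for Timp2. Over all settings Mmp11 ran from 0.49 to 1.06 in the mean. Between genotypes, where no test was made, the log2 KO minus WT difference ran from -2.33 to -1.69 for Mmp23, -2.93 to -0.37 for Mmp3, -0.39 to -0.02 for Mmp2, -0.22 to -0.04 for Mmp14, 0.29 to 0.51 for Timp2 and 0.23 to 1.21 for Mmp9, and across 0 for Timp3 (-0.41 to 0.34), Timp1 (-0.81 to 0.04) and Mmp11 (-0.29 to 0.28). Low depth limits Mmp3, Mmp9, Mmp13 and, in KO, Mmp23.

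The labels give the groups the same replicate numbers but do not say that a number marks a shared culture or batch. The deviations of same-numbered libraries correlated at 0.57 between the WT oxygen groups, at 0.23 between the KO oxygen groups and at -0.11 to 0.11 between genotypes. With the replicate number as a block, 19 features passed in WT hypoxia, 11 in KO hypoxia, 56 for the mean response and 4 between genotypes, and 0 of the family's genes passed in hypoxia. That block was shared by both genotypes, so a shift by replicate number within WT only was not modelled.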
